A study of Mus musculus with 7 samples.

Results

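Oxidative phosphorylation is the chain of reactions in the inner mitochondrial membrane that turns the energy of electrons from food into ATP. Complex I (NADH dehydrogenase) and complex II (succinate dehydrogenase) pass electrons to ubiquinone, complex III (the cytochrome bc1 complex) passes them on to cytochrome c, and complex IV (cytochrome c oxidase) hands them to oxygen. Complexes I, III and IV pump protons on the way, and complex V (ATP synthase) lets the protons flow back to make ATP. Most subunits are encoded in the nucleus and a few core ones in mitochondrial DNA. Hematopoietic stem cells are known for a low reliance on this pathway at rest and for a rise in it when they enter the cycle and differentiate.

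The genes described here are the nuclear genes of this pathway, taken by symbol from a table of read counts. They were all genes whose symbol starts with Nduf, Uqcr, Atp5, Cox4, Cox5, Cox6, Cox7 or Cox8, together with Sdha, Sdhb, Sdhc, Sdhd, Cyc1 and Cycs. This gave 94 of the 24421 symbols of the table, and 0 symbols were left out as pseudogenes. Of the 94 genes, 36 encode subunits of complex I, 4 of complex II, 9 of complex III, 19 of complex IV and 15 of complex V, and 1 encodes cytochrome c. The other 10 symbols share the prefixes but name proteins outside the finished complexes. These are 8 assembly factors of complex I (Ndufaf1 to Ndufaf7 and Atp5sl), the supercomplex factor Cox7a2l and Atp5s, a coupling factor of ATP synthase. Subunits encoded in mitochondrial DNA were not analysed here, because 0 of the 26 symbols looked up for them had a row in the table.

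The measurements are RNA-seq libraries of LSK cells, the lineage-negative Sca1+ Kit+ bone marrow fraction that holds stem cells and multipotent progenitors. Irradiated BoyJ recipients had received marrow from RosaCreERT2 donors that were Ddx41+/+ or carried 1 floxed Ddx41 allele. Recipients of both kinds were given 1 mg tamoxifen daily in 2 rounds of 5 days. At 8 weeks post-transplant, LSK cells were sorted from 4 Ddx41+/+ mice (replicates 1 to 4) and 3 Ddx41+/- mice (replicates 6 to 8), with 1 mouse per sample. RosaCreERT2 is expressed in most cell types and not only in blood cells, both genotypes carry it, and the labels name no donor marker in the sort, so host cells that survived irradiation may be present. The age of the animals is not given in the labels. Libraries held 32234499 to 43751290 counts. The targeted gene Ddx41 averaged 97.9 CPM (counts scaled to library size, SD 6.43, n = 4) in controls against 67.3 CPM (SD 2.63, n = 3) with 1 allele deleted (log2 fold change -0.54, SE 0.071, edgeR adjusted p = 0.0052).

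Among the marker genes of the sorted fraction, Kit was at 427.1 to 505.1 CPM and Ly6a, which encodes Sca1, at 13.3 to 30.5 CPM, and all 10 LSK markers were detected. Markers of mature neutrophils stood apart by genotype, with a summed level of 741 to 1255 CPM in Ddx41+/+ and 1335 to 2283 CPM in Ddx41+/- samples. Of the 10, 9 had an unadjusted p under 0.05 upward and 1, Mmp9, passed the adjusted threshold (edgeR adjusted p = 0.0068). Of all 13340 genes tested, 5.7% were upward and 4.93% downward at this unadjusted p, and 0.217% passed the adjusted threshold. The LSK markers summed to 1665 to 1856 CPM in Ddx41+/+ and 1536 to 1676 CPM in Ddx41+/-, with 7 of 10 at an unadjusted p under 0.05 downward and 0 past the adjusted threshold. B-lineage markers reached 423.6 CPM in Ddx41+/- replicate 7, against 94.97 to 191.6 CPM in the 6 other samples. That sum rested on Jchain, the joining chain of antibodies made by plasma cells, at 346.1 CPM in this mouse, and the other 8 markers summed to 42.7 to 63.6 CPM in Ddx41+/+ and 57.2 to 78.8 CPM in Ddx41+/- samples, with 77.5 CPM in replicate 7. T and NK markers (224.2 to 276.4 CPM against 255.5 to 284.2 CPM), macrophage markers (174.7 to 197.4 CPM against 176.9 to 239.2 CPM) and late erythroid markers (51.5 to 84.4 CPM against 70.5 to 86.8 CPM) overlapped between genotypes, and 6 of the 11 late erythroid markers in the table, all globin genes, were at 0 in every library. The T and NK sum rested on Nkg7, at 220.7 to 281 CPM, while Cd3e reached at most 0.348 CPM and Cd4 2.12 CPM. Most of the macrophage sum was Csf1r, at 116.8 to 154.8 CPM, and Vcam1, at 33.7 to 53.0 CPM, while C1qa was at 1.37 to 4.75 CPM. In bulk samples, fewer cells of a type and less RNA per cell cannot be told apart, and the part of this mixture in the values below was not tested.

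The pathway was strongly expressed in LSK cells of both genotypes. Its 94 genes held between 1.16% and 1.30% of all counts in a sample. Of the 94, 89 passed the filter on low counts, and 79 of those lay above the median of the 13340 genes tested by mean CPM. Among them, 21 genes (23.6%) were in the upper 10% of genes. Per kb of exons, the highest levels were those of Atp5a1 and Atp5b, which encode the alpha and beta subunits of the F1 motor, at 418.6 and 354.4 CPM per kb over all samples. They were followed by the complex IV subunits Cox8a (331.4 CPM per kb), Cox6b1 (268.7), Cox6a1 (221.9) and Cox4i1 (212.5 CPM per kb). The other leading genes of their groups were Sdhd, a membrane anchor of complex II (155.4 CPM per kb), Uqcr11 of complex III (138.5), Atp5k of the membrane part of complex V (129.4), Ndufb11 of the complex I membrane arm (119.6) and Ndufa2 of the complex I matrix arm (117.9 CPM per kb). Cycs stood at 30.3 CPM per kb. The exon length counts every annotated exon, and with the longest transcript in its place Atp5b rose to 783.7 CPM per kb, so the order near the top depends on the length used.

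The 5 genes that did not pass the filter were Ndufs5, Cox7b2, Cox8b, Cox8c and Ndufa4l2. The first 4 were listed at 0 counts in all 7 samples, and Ndufa4l2 had 6 counts in Ddx41+/- replicate 7 and 0 in the rest. Ndufs5 encodes a complex I subunit that cells with a working complex I are known to use. Its row at 0 is a property of this table, as are those of the globin genes above, and no level in LSK cells was read from it or from the rows of Cox7b2, Cox8b and Cox8c at 0.

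Complex IV contains subunits with paired genes, of which 1 is used in most tissues and the other in heart and skeletal muscle, lung, testis or under low oxygen. In LSK cells the widely used gene was the higher one in each of the 4 pairs with counts in both genes (Cox4, Cox6a, Cox6b and Cox7a). Cox4i1 was at 192.9 to 228.3 CPM per kb and its lung isoform Cox4i2 at 2.09 to 4.59 CPM per kb, so that Cox4i1 exceeded Cox4i2 by 42.0 to 95.1 times within a sample. The ratio of their means was 69.6 by the exon length and 131.2 by the longest transcript. Cox6a1 was at 196.5 to 241.9 CPM per kb and the muscle isoform Cox6a2 at 1.01 to 1.83 CPM per kb, a ratio of 120.8 to 221.2. The muscle isoform Cox7a1 had between 0 and 14 counts in a library, while Cox7a2 was at 101.4 to 120.6 CPM per kb.

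Of these 4 pairs, the one with the least difference was Cox6b1 and Cox6b2, the latter known from testis. Cox6b2 stood at 14.8 to 23.2 CPM per kb with at least 679 counts in each library, and Cox6b1 exceeded it by 11.97 to 16.3 times. The ratio of their means was 13.7 by the exon length and 8.27 by the longest transcript. Cox8b, Cox8c and Cox7b2 were listed at 0, from which no ratio was taken. Cox8a was at 304.2 to 361.1 CPM per kb and Cox7b, the widely used relative of Cox7b2, at 102.2 to 138.5 CPM per kb. Ndufa4, now counted as a complex IV subunit, was at 132.5 to 173.8 CPM per kb, and its relative Ndufa4l2, known as a target of hypoxia-inducible factor, reached 0.163 CPM per kb in Ddx41+/- replicate 7 only. Cox7a2l, a Cox7a relative that joins complexes III and IV into supercomplexes, was nearly as high as Cox7a2, at 95.9 to 119.0 CPM per kb. Muscle markers such as Ckm summed to 4.36 to 7.74 CPM in Ddx41+/+ and 4.37 to 6.496 CPM in Ddx41+/- samples.

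The c subunit of ATP synthase, whose ring turns as protons pass, is encoded by 3 genes that yield the same mature protein. Atp5g3 was at 100.8 to 123.2 CPM per kb, Atp5g2 at 80.8 to 102.7 CPM per kb and Atp5g1 at 27.9 to 32.9 CPM per kb. Atp5g3 and Atp5g2 overlapped across samples, and Atp5g1 was the lowest in every sample, by 3.07 to 3.88 times against Atp5g3. By the longest transcript the same ratio of means was 8.73, since the exons of Atp5g3 add up to 2181 bases and its longest transcript to 862, while those of Atp5g1 are close (4912 and 4715 bases). No tested gene of these 8 isoform sets passed the edgeR test between genotypes, and the plot of isoform levels shows the samples of both.

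**Figure D1:**
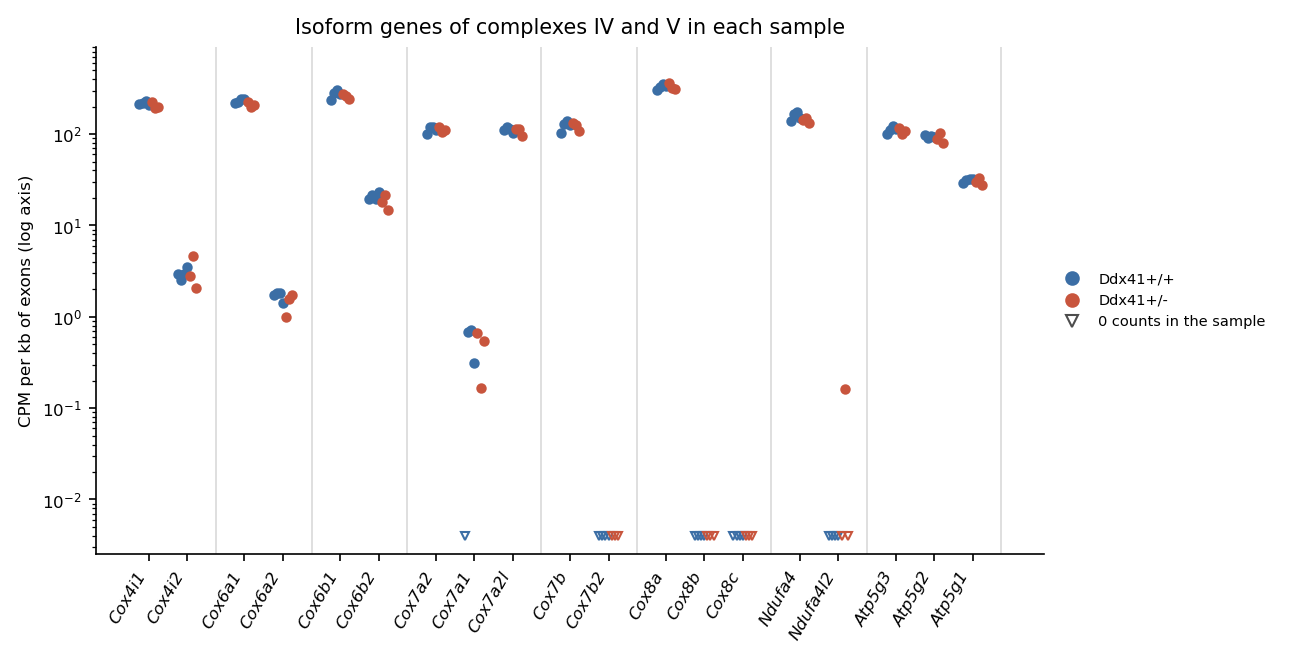
CPM per kb of exons (log axis) of 19 genes in 8 isoform sets, 1 point per sample, Ddx41+/+ in blue and Ddx41+/- in red, with open triangles for samples at 0 counts. Cox4i2, Cox6a2 and Cox7a1 lie at or under 4.59 CPM per kb, Cox6b2 and Atp5g1 lie between 14.8 and 32.9 CPM per kb, and the other expressed genes lie higher, with overlapping genotypes.

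The comparison of genotypes asked whether LSK cells with 1 Ddx41 allele differ in the transcripts of this pathway. None of the 89 genes passed an edgeR adjusted p under 0.05, against 29 of 13340 genes overall (0.217%). At an unadjusted p under 0.05, 0 genes were higher in Ddx41+/-, where 5.7% of all genes were, and 1 gene was lower, where 4.93% of all genes were. The count at the adjusted threshold was also 0 with DESeq2 and limma-voom. The log2 fold changes of the 89 genes ran from -0.24 to 0.20 with a median of -0.036, and the median over all genes was -0.0048. Of the 89 genes, 28 had a log2 fold change above 0 and 61 below 0, against 6512 above and 6828 below over all genes tested. With a correction for transcript length and GC content, 46 of the 89 genes were above and 43 below 0. In 2 genes, Atp5s (higher) and Ndufa11 (lower), the CPM values of Ddx41+/- mice lay wholly outside those of Ddx41+/+ mice, and 10.1% of all genes showed this.

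These data limited the size of a difference more closely than for most genes. The 95% interval of the fold change lay within 1.2-fold in both directions for 58 of the 89 genes (65.2%) and within 1.5-fold for 86 (96.6%), against 31.65% and 70.2% of all genes tested. The 3 genes whose interval went past 1.5-fold were the tissue-restricted Cox4i2, Cox6a2 and Cox7a1, which had few counts. The median half-width of the interval was 0.16 on the log2 scale for the pathway and 0.23 for all genes, which include many at lower counts. The plot of fold changes shows the intervals by complex.

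**Figure D2:**
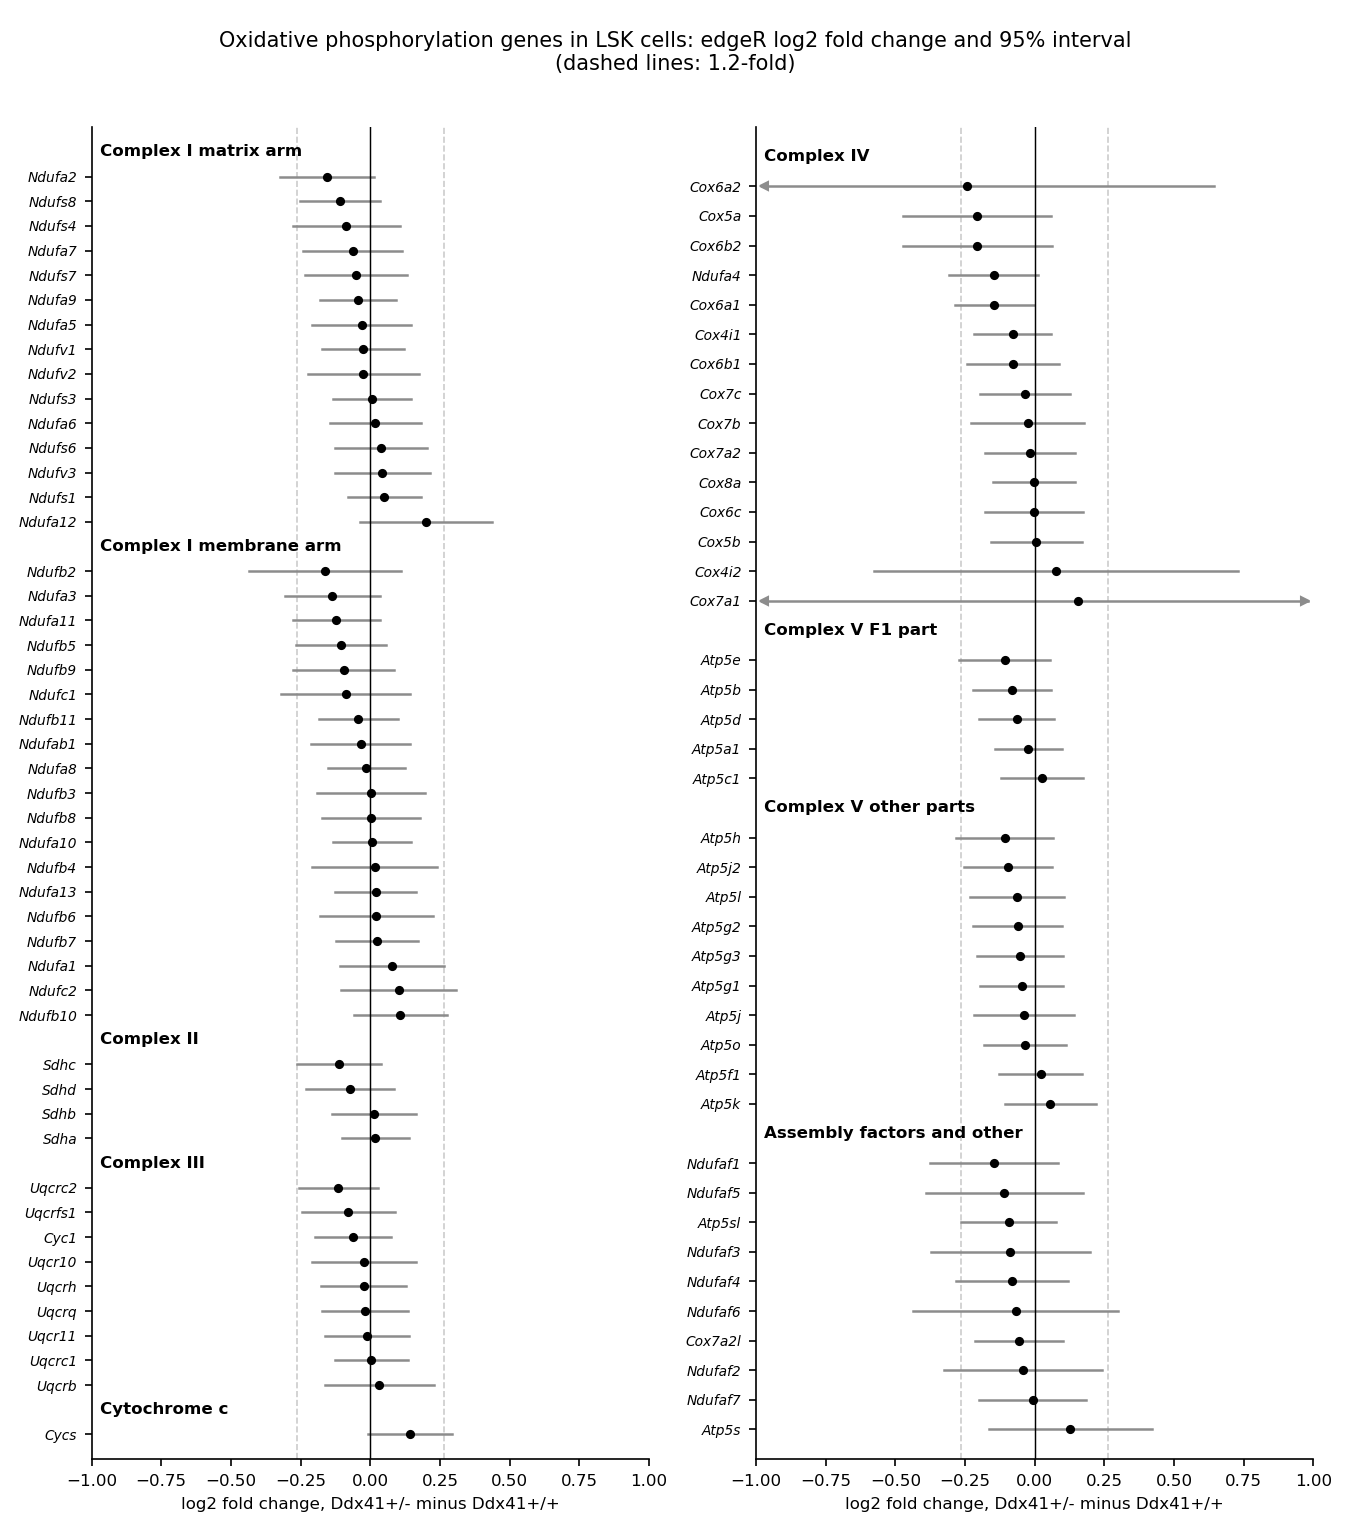
edgeR log2 fold change (Ddx41+/- minus Ddx41+/+, points) with its 95% interval (lines) for genes of the pathway, grouped by complex, with dashed lines at 1.2-fold and arrowheads where an interval runs past the axis. All intervals shown cover 0 except that of Cox6a1, whose upper end lies at -0.004.

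In complex I, which takes electrons from NADH, 35 of 36 subunit genes were tested, with 16 log2 fold changes above and 19 below 0 (median -0.025). Ndufs8, which binds iron-sulfur clusters next to the ubiquinone site, was at 91.9, 104.9, 103.6 and 103.0 CPM in the 4 Ddx41+/+ mice (replicates 1 to 4 in order) and at 96.5, 91.5 and 92.4 CPM in the 3 Ddx41+/- mice (6 to 8). Replicate 1 was low among the Ddx41+/+ samples, inside the range of the Ddx41+/- samples (log2 fold change -0.11, SE 0.068, edgeR adjusted p = 0.60). Ndufs1, the largest of the core subunits, was at 118.7 to 127.8 CPM in Ddx41+/+ and 123.4 to 131.9 CPM in Ddx41+/-.

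The matrix-arm genes with the smallest p were accessory subunits. Ndufa2 was at 70.7, 67.2, 74.6 and 69.6 CPM in Ddx41+/+ and at 69.4, 56.2 and 64.2 CPM in Ddx41+/- samples. Replicate 7 was low and replicate 6 lay within the Ddx41+/+ range (log2 fold change -0.16, SE 0.079, unadjusted p = 0.067, edgeR adjusted p = 0.51). Of the exon bases of Ndufa2, 11.5% also belong to Tmco6 on the opposite strand, and reads there can be told apart only if strand was used in counting, which the sources leave unclear. Ndufa12 (chromosome 10, 94198720 to 94221443) had the opposite sign, with 30.7, 33.4, 42.4 and 35.6 CPM in Ddx41+/+ and 40.0, 45.9 and 36.6 CPM in Ddx41+/- samples. Its groups overlapped through Ddx41+/+ replicate 3 (log2 fold change 0.20, SE 0.11, unadjusted p = 0.091, edgeR adjusted p = 0.56).

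In the membrane arm, which pumps protons, 10 of 19 log2 fold changes were above 0 and 9 below 0 (median 0.0015). Ndufa11, an accessory subunit needed to assemble the complex (chromosome 17, 56717767 to 56722141), was at 53.4, 50.1, 50.9 and 51.0 CPM in Ddx41+/+ and at 47.9, 48.9 and 44.8 CPM in Ddx41+/- samples. All Ddx41+/- samples lay under all Ddx41+/+ samples, and the difference did not pass the test (log2 fold change -0.12, SE 0.074, edgeR adjusted p = 0.59), with a log2 fold change of -0.06 after the length and GC correction. Vmac on the opposite strand covers 6.4% of its exon bases. Ndufa3 was at 59.2 to 69.8 CPM in Ddx41+/+ and 54.1 to 61.7 CPM in Ddx41+/- samples (log2 fold change -0.14, SE 0.080). Ndufb10 was at 80.0 to 99.5 CPM and 94.7 to 101.5 CPM (log2 fold change 0.11, SE 0.079). The edgeR adjusted p was 0.58 for Ndufa3 and 0.67 for Ndufb10. Ndufb11, the highest of the arm per kb, was at 105.2 to 115.1 CPM against 101.5 to 113.4 CPM.

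In complex II, which also works in the TCA cycle, 3 of the 4 genes had intervals within 1.2-fold, and that of Sdhc reached 0.832-fold. The flavoprotein gene Sdha was at 374.4, 391.1, 406.1 and 381.1 CPM in Ddx41+/+ and at 396.6, 401.0 and 382.1 CPM in Ddx41+/- samples, and the groups overlapped fully (log2 fold change 0.02, SE 0.056, edgeR adjusted p = 0.94). The iron-sulfur subunit Sdhb was at 112.6 to 123.8 CPM in Ddx41+/+ and 108.6 to 129.7 CPM in Ddx41+/-. The membrane anchors Sdhc and Sdhd had log2 fold changes of -0.11 (SE 0.072) and -0.07 (SE 0.074), with edgeR adjusted p-values of 0.62 and 0.78. For both, Ddx41+/- replicate 7 was the lowest sample, at 110.8 CPM of Sdhc and 172.8 CPM of Sdhd.

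Complex III was as close between genotypes, with all 9 intervals within 1.2-fold and a median log2 fold change of -0.02. Uqcrc2, a core protein of the matrix side, was at 201.7, 211.6, 239.8 and 208.1 CPM in Ddx41+/+ and at 203.0, 192.2 and 201.2 CPM in Ddx41+/- samples. The highest 3 samples were Ddx41+/+ and the groups overlapped through replicates 1 and 6 (log2 fold change -0.11, SE 0.067, edgeR adjusted p = 0.58). Pdzd9 on the opposite strand covers 19.7% of the exon bases of Uqcrc2. The catalytic subunits are the Rieske protein Uqcrfs1 and cytochrome c1, encoded by Cyc1. Uqcrfs1 averaged 121.7 ± 9.94 CPM (SD, n = 4) in Ddx41+/+ mice against 115.2 ± 10.4 CPM (SD, n = 3) in Ddx41+/- mice, and Cyc1 averaged 179.7 ± 9.38 CPM (SD, n = 4) against 172.0 ± 9.18 CPM (SD, n = 3). The edgeR adjusted p was 0.78 for each.

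Cycs encodes cytochrome c, which carries electrons from complex III to IV and triggers caspases when released into the cytosol (chromosome 6, 50562563 to 50566538). It was at 93.7, 99.6, 109.9 and 92.5 CPM in Ddx41+/+ and at 111.1, 110.1 and 106.3 CPM in Ddx41+/- samples. The Ddx41+/- samples lay close together at the upper end and overlapped with Ddx41+/+ replicate 3. The log2 fold change of 0.14 (SE 0.071) was positive, unlike the median of complexes III and IV between which the protein works, and it did not pass the test (unadjusted p = 0.063, edgeR adjusted p = 0.50). Its 95% interval ran from 0.99 to 1.22-fold.

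Complex IV held the 1 gene with an unadjusted p under 0.05. Cox6a1, a widely expressed regulatory subunit (chromosome 5, 115345642 to 115348981 in GRCm38), was at 153.3, 157.8, 168.8 and 169.8 CPM in Ddx41+/+ and at 156.6, 137.9 and 146.2 CPM in Ddx41+/- samples. Replicates 7 and 8 lay under all Ddx41+/+ samples and replicate 6 inside their range. The log2 fold change was -0.14 (SE 0.066, unadjusted p = 0.044, edgeR adjusted p = 0.45). Without Ddx41+/+ replicate 2, 3 or 4, or without Ddx41+/- replicate 8, 0 genes of the pathway were lower at an unadjusted p under 0.05, and without Ddx41+/+ replicate 1 or Ddx41+/- replicate 6 there were 6. Cox6a1 itself was no longer at an unadjusted p under 0.05 in these first 4 cases, without Ddx41+/- replicate 7, with sample quality weights, or with a correction for length and GC content, which moved its log2 fold change to -0.09. Among the 11 widely expressed subunits, 10 log2 fold changes were below 0 and 1 above (median -0.036).

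Ndufa4 (chromosome 6, 11900292 to 11907497) was at 193.3, 226.8, 240.1 and 208.7 CPM in Ddx41+/+ and at 198.7, 206.6 and 183.0 CPM in Ddx41+/- samples. The upper 3 samples were Ddx41+/+ and replicate 1 lay among the Ddx41+/- samples (log2 fold change -0.15, SE 0.075, unadjusted p = 0.066, edgeR adjusted p = 0.51). Cox5a, a subunit on the matrix side (chromosome 9, 57521274 to 57532426), had the widest spread of the widely expressed ones, with 149.3, 184.5, 202.1 and 182.0 CPM in Ddx41+/+ and 185.0, 133.7 and 147.6 CPM in Ddx41+/- samples. Each genotype thus held both low and high mice (log2 fold change -0.21, SE 0.12, edgeR adjusted p = 0.58). Cox4i1, which joins early in the assembly of the enzyme, was at 337.1 ± 12.7 CPM (SD, n = 4) and 319.1 ± 27.5 CPM (SD, n = 3) in the same order, and its edgeR adjusted p was 0.71. Cox8a stood at 205.3 ± 13.1 CPM (SD, n = 4) and 204.9 ± 16.4 CPM (SD, n = 3).

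In complex V, 13 of 15 genes had intervals within 1.2-fold, with 3 log2 fold changes above and 12 below 0 (median -0.053). The catalytic beta subunit Atp5b was at 1446, 1535, 1629 and 1541 CPM in Ddx41+/+ and at 1572, 1335 and 1452 CPM in Ddx41+/- samples. Replicate 7 was the lowest and replicate 6 the second highest sample (log2 fold change -0.08, SE 0.066, edgeR adjusted p = 0.71). Atp5a1, its alpha partner, was at 1301, 1304, 1373 and 1308 CPM in Ddx41+/+ and at 1356, 1257 and 1288 CPM in Ddx41+/- samples, and it had the narrowest range of the named genes of this complex relative to its level (log2 fold change -0.02, SE 0.057). Of the smaller F1 subunits, Atp5e had a log2 fold change of -0.11 (SE 0.076) and Atp5d of -0.06 (SE 0.064), with edgeR adjusted p-values of 0.66 and 0.78.

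Outside F1, the stalk subunit Atp5h was at 149.5 to 186.1 CPM in Ddx41+/+ and 138.5 to 170.5 CPM in Ddx41+/- samples (log2 fold change -0.11, SE 0.082), and the membrane subunit Atp5j2 at 108.4 to 127.1 CPM and 102.3 to 121.0 CPM (log2 fold change -0.09, SE 0.075). The edgeR adjusted p-values were 0.69 and 0.70. The c-ring genes had log2 fold changes of -0.06 (Atp5g2), -0.053 (Atp5g3) and -0.047 (Atp5g1). Atp5k, which helps to dimerise the enzyme, was at 78.4 ± 6.999 CPM (SD, n = 4) and 81.4 ± 3.30 CPM (SD, n = 3).

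The 10 proteins outside the finished complexes had 1 log2 fold change above 0 and 9 below (median -0.075). Ndufaf1, which helps to build the membrane arm of complex I, was at 24.98, 24.35, 31.56 and 24.51 CPM in Ddx41+/+ and at 24.4, 24.1 and 22.9 CPM in Ddx41+/- samples. Replicate 3 stood alone and the other 6 samples lay close together (log2 fold change -0.15, SE 0.11, edgeR adjusted p = 0.68). Atp5s was at 9.36, 9.99, 10.4 and 8.73 CPM in Ddx41+/+ and at 10.7, 10.5 and 10.4 CPM in Ddx41+/- samples, where the lowest Ddx41+/- and the highest Ddx41+/+ value differ only past the digits given (log2 fold change 0.13, SE 0.14, edgeR adjusted p = 0.80). Atp5sl was at 43.1 ± 2.38 CPM (SD, n = 4) and 40.4 ± 1.62 CPM (SD, n = 3), and Cox7a2l at 164.8 ± 10.5 CPM (SD, n = 4) and 158.6 ± 14.6 CPM (SD, n = 3).

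**Figure D3:**
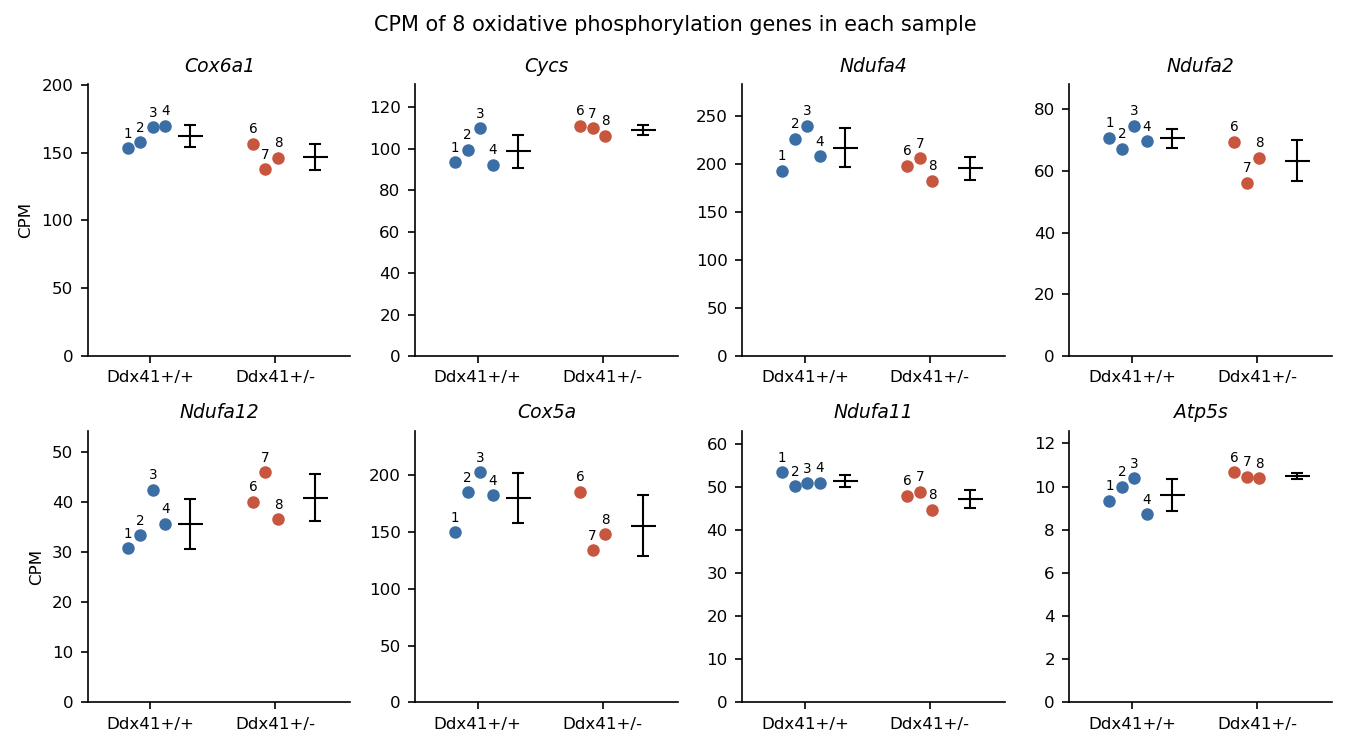
CPM of 8 genes in each sample (points, labelled by replicate number, Ddx41+/+ in blue and Ddx41+/- in red) with the mean and SD per genotype beside them (n = 4 and n = 3). The genotypes overlap in 6 genes, and in Ndufa11 and Atp5s they do not, with an Atp5s gap too small to see.

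In several mice most genes of the pathway lay on the same side of their mean. For each gene, the log2 CPM in a sample was taken relative to its mean over the 7 samples, and the median over the 89 genes was -0.081, 0.045, 0.10 and 0.0021 in the Ddx41+/+ mice 1 to 4 and 0.058, -0.028 and -0.077 in the Ddx41+/- mice 6 to 8. The pathway was thus lowest in 1 Ddx41+/+ and 1 Ddx41+/- mouse at nearly the same level, while the medians over all genes lay between 0.0001 and 0.0093. Ddx41+/+ replicate 3 was the highest sample for 39 of the 89 genes (43.8%), where it was the highest for 18.05% of all genes. The lowest sample was Ddx41+/- replicate 7 for 31 genes, Ddx41+/+ replicate 1 for 29 and Ddx41+/- replicate 8 for 23, and never Ddx41+/+ replicate 2 or 3.

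The highest sample was Ddx41+/+ replicate 3 in each of complexes I, II, III, IV and V by this median, and the lowest sample differed between complexes. Complex IV genes had medians of -0.12 in Ddx41+/+ replicate 1, 0.15 in replicate 3 and -0.13 in Ddx41+/- replicate 8, and the stalk and membrane genes of complex V had -0.11, 0.12 and -0.13 in these samples. Complex III genes had -0.072 and 0.13 in Ddx41+/+ replicates 1 and 3 and -0.090 in Ddx41+/- replicate 7. The F1 genes were also lowest in Ddx41+/- replicate 7, at -0.064. As a share of counts, complex V held between 0.466% (Ddx41+/- replicate 7) and 0.528% (Ddx41+/+ replicate 3), complex I between 0.267% and 0.288%, complex IV between 0.176% and 0.206%, complex III between 0.124% and 0.1395% and complex II between 0.0792% and 0.0869%. The share of the ribosomal RNA precursor Rn45s also differed between samples, at 1.52%, 1.67%, 2.92% and 0.876% in Ddx41+/+ and 2.05%, 2.58% and 0.623% in Ddx41+/- samples, and its part in the pattern was not tested. After each sample was corrected for a trend on transcript length and GC content, the medians of the 89 genes were -0.027, 0.0083, 0.062 and -0.030 in Ddx41+/+ and 0.060, -0.0055 and -0.040 in Ddx41+/- samples, so the range narrowed. The highest median was that of Ddx41+/+ replicate 3 (0.0622), close to Ddx41+/- replicate 6 (0.0598). The lowest was that of Ddx41+/- replicate 8 (-0.0404), with Ddx41+/+ replicate 4 next (-0.0298). After the same correction the medians over all genes were 0.0232 and 0.0139 in replicates 3 and 6. They were -0.0119 and -0.0001 in replicates 8 and 4, so the order at each end was not settled.

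**Figure D4:**
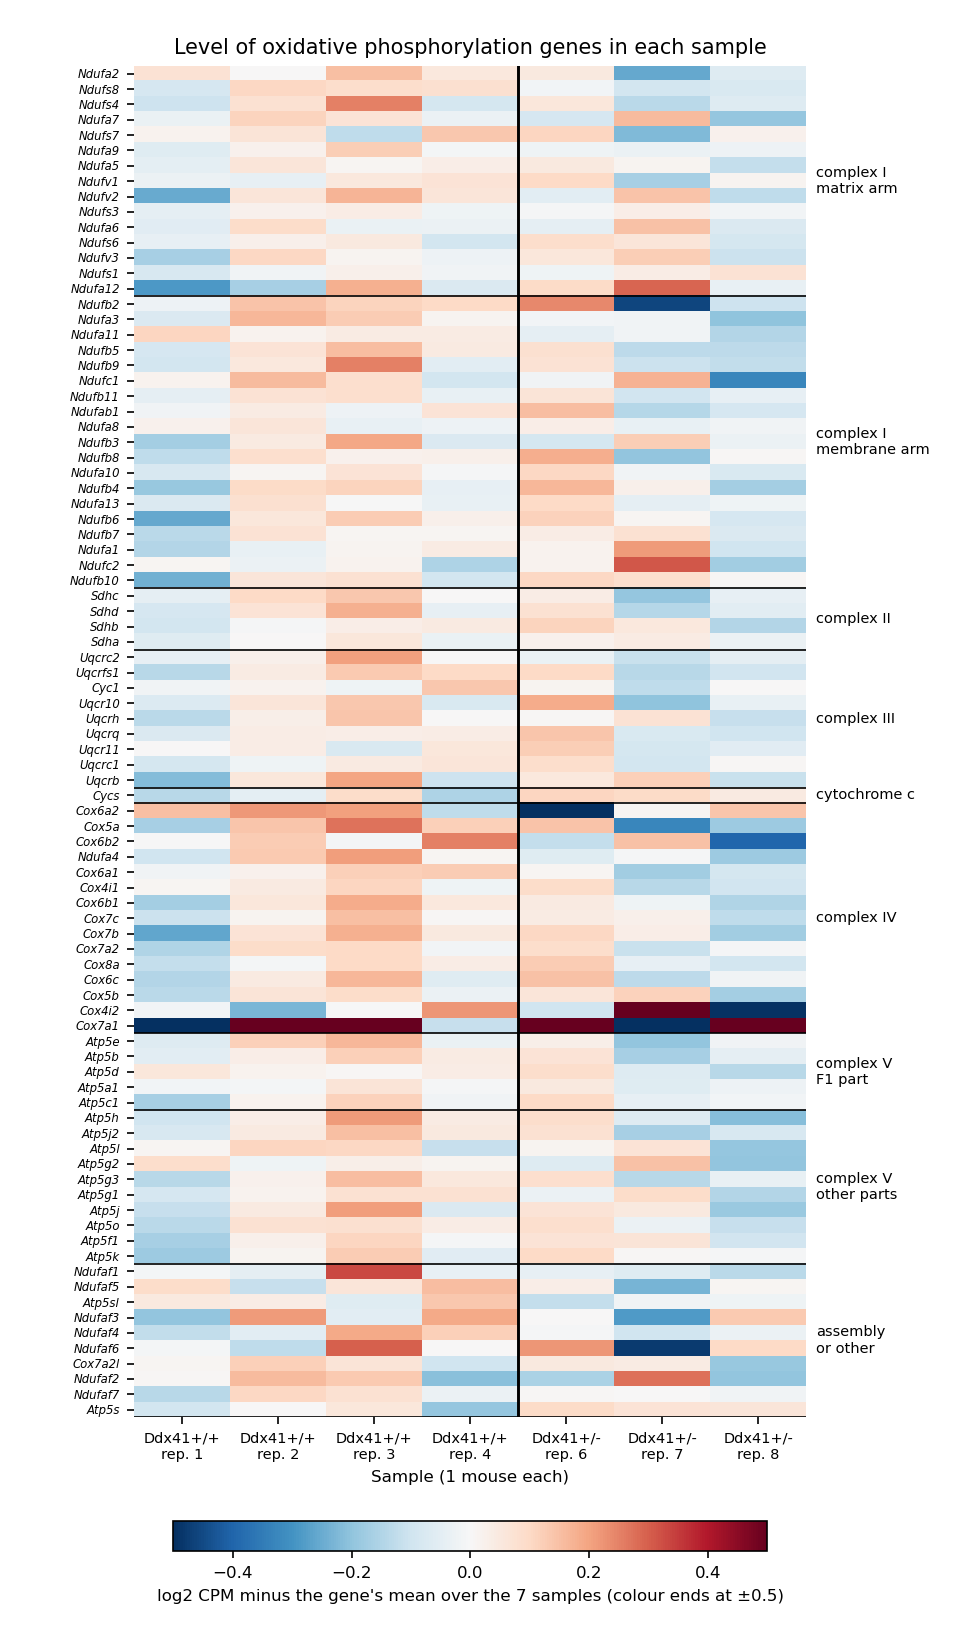
Log2 CPM of genes of the pathway minus the gene's mean over the 7 samples (red above, blue below, colours end at ±0.5), with samples in columns and genes in rows grouped by complex. The column of Ddx41+/+ replicate 3 is mostly red, those of Ddx41+/+ replicate 1 and Ddx41+/- replicate 8 are mostly blue, and Ddx41+/- replicate 7 is mixed.

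**Figure D5:**
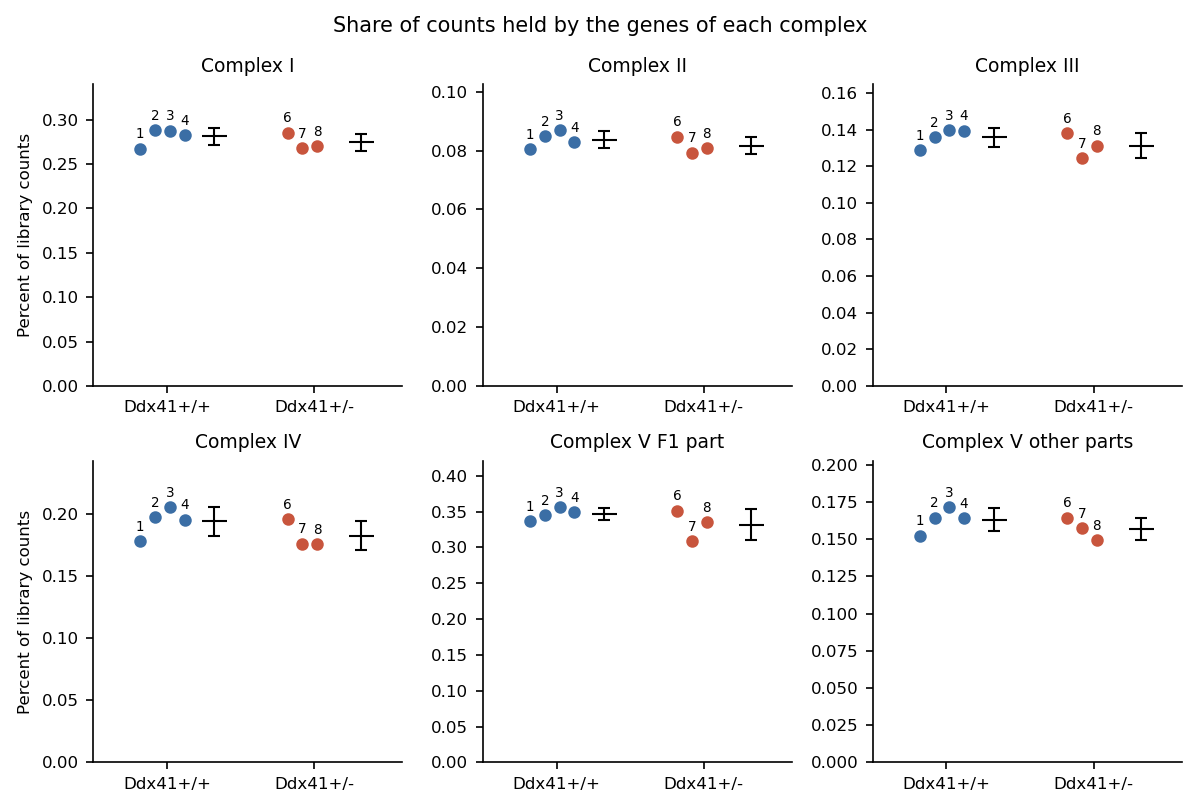
Percent of library counts in the genes of complexes I to IV and the 2 parts of complex V, 1 point per sample labelled by replicate number, with the mean and SD per genotype (n = 4 and n = 3). Ddx41+/- replicate 7 has the lowest share in the F1 part, at 0.309%, and the genotypes overlap in each panel.

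Ddx41+/- replicate 7 differed from the other low mice in that the genes of 1 complex went opposite ways. It was the lowest sample for 31 of the 89 genes and the highest for 13. Within complex I, and chosen here after the values were seen, Ndufb2 was at 31.2 CPM in this mouse and at 40.0 to 50.7 CPM in the 6 others, while Ndufc2 was at 79.4 CPM against 56.9 to 64.9 CPM and Ndufa1 at 53.4 CPM against 41.6 to 47.4 CPM. All 3 encode accessory subunits of the membrane arm. Over all genes this library was also the one most often at an extreme, as the lowest for 21.9% and the highest for 19.3% of genes. Without it, 0 of the 89 genes passed the adjusted threshold as before.

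Many promoters of this pathway are known to bind NRF1, a factor that couples respiratory genes to cell growth, and ETS factors such as GABP. RefSeq promoters (GRCm38.p6, 250 bases before to 50 after the start) were matched for 74 of the 94 genes, with 79 promoters. The NRF1 core letters GCGCATGC were found on either strand in 13 of 79 promoters (16.5%), against 2.71% of all 32851 promoters. The ETS letters CCGGAAG were found in 17 (21.5%, against 8.86%) and the YY1 letters AAGATGGCG in 7 (8.86%, against 1.4%). More than 1 of these motifs was found in 6 promoters, and matches to different motifs shared bases in 0. A match of letters is a description and not a site shown to be bound in LSK cells.

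The genes with an NRF1 match included Cox6a1 and Cycs, the complex IV subunit and the electron carrier with the smallest p in either direction. Sdhb of complex II also had a match and was chosen after its values were seen. The 250 bases before the start of Cox6a1, Cycs and Sdhb are shown. Their log2 fold changes were -0.14, 0.14 and 0.01. Since these genes were picked by their p or after their values were seen, the signs say nothing about the motif. The signs of the other genes with a match were not compared. Capitals mark each match to the motif on either strand, and in Cox6a1 2 matches overlap.
Cycs (chr6:50566570-50566819, minus strand): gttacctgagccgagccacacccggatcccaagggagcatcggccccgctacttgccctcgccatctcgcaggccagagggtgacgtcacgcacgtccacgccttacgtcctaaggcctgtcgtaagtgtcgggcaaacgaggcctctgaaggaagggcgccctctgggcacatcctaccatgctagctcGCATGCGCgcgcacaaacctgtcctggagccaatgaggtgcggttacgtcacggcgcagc
Cox6a1 (chr5:115348959-115349208, minus strand): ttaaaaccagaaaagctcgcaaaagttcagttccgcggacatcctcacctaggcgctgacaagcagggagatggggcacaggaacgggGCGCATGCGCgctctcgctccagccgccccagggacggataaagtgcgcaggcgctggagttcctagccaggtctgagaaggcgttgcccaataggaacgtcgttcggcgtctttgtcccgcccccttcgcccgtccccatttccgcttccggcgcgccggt
Sdhb (chr4:140961021-140961270, plus strand): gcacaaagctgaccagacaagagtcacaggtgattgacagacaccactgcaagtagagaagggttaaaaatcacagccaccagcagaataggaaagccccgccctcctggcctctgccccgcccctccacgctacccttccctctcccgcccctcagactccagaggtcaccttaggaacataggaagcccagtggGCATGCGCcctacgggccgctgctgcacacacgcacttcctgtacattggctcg

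The genes around the pathway were described from lists. Over all genes tested, 0.217% passed the adjusted threshold, and 5.7% were upward and 4.93% downward at an unadjusted p under 0.05 in edgeR. Among 40 tested assembly factors outside the symbols above, 0 passed the adjusted threshold in edgeR and 0 had an unadjusted p under 0.05, with 18 log2 fold changes above and 22 below 0. Sdhaf1, which helps to insert the iron-sulfur clusters of complex II, was at 17.3 to 20.3 CPM in Ddx41+/+ and 14.4 to 18.3 CPM in Ddx41+/- samples (log2 fold change -0.25, SE 0.12, edgeR adjusted p = 0.49). Tmem70, which helps to assemble ATP synthase, was at 42.4 to 44.9 CPM and 35.9 to 41.2 CPM, without overlap (log2 fold change -0.16, SE 0.081, edgeR adjusted p = 0.50). Such a lack of overlap was seen in 10.1% of all genes.

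Among 19 tested regulators of mitochondrial biogenesis, 0 passed the adjusted threshold, 1 had an unadjusted p under 0.05 upward and 1 downward. Of all genes, 5.7% were upward and 4.93% downward at this unadjusted p. Gabpa, the DNA-binding subunit of GABP, was at 92.8, 94.1, 92.0 and 96.3 CPM in Ddx41+/+ and at 106.2, 112.6 and 100.1 CPM in Ddx41+/- samples. The genotypes did not overlap, as in 10.1% of all genes (log2 fold change 0.18, SE 0.065, unadjusted p = 0.014, edgeR adjusted p = 0.33). With the length and GC correction the log2 fold change was 0.11 (edgeR adjusted p = 0.52). Gabpa lies beside Atp5j on the opposite strand, and 12.7% of the exon bases of Atp5j are shared with it. Atp5j, the complex V coupling factor 6, was at 136.3 to 170.8 CPM in Ddx41+/+ and 129.9 to 154.9 CPM in Ddx41+/-. Polg2, an accessory subunit of the mitochondrial DNA polymerase, was at 7.83 to 9.48 CPM in Ddx41+/+ and 5.07 to 7.37 CPM in Ddx41+/- samples, also without overlap (log2 fold change -0.43, SE 0.18, edgeR adjusted p = 0.39), and without Ddx41+/- replicate 7 its log2 fold change was -0.28 (edgeR adjusted p = 0.78).

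Of 19 TCA cycle genes, 0 had an unadjusted p under 0.05 and 0 passed the adjusted threshold. Fh1, fumarate hydratase, was at 128.3 to 141.4 CPM in Ddx41+/+ and 119.7 to 122.6 CPM in Ddx41+/- samples (log2 fold change -0.13, SE 0.062, edgeR adjusted p = 0.50), and Suclg1, a subunit of succinyl-CoA ligase, at 139.5 to 176.3 CPM and 137.2 to 147.3 CPM (log2 fold change -0.13, SE 0.075, edgeR adjusted p = 0.56). Of 20 glycolysis genes, 0 passed the adjusted threshold, and 2 had an unadjusted p under 0.05 upward and 1 downward, where 5.7% and 4.93% of all genes did. The upward ones were Hk3, a hexokinase of myeloid cells, at 425.1 to 466.9 CPM in Ddx41+/+ and 464.6 to 544.3 CPM in Ddx41+/- samples (log2 fold change 0.18, SE 0.065), and Pfkp, the platelet-type phosphofructokinase, at 94.6 to 109.5 CPM and 113.8 to 119.5 CPM (log2 fold change 0.18, SE 0.067). Their edgeR adjusted p-values were 0.33 and 0.35. The downward one was Pfkm, at 65.0 to 67.1 CPM in Ddx41+/+ and 56.8 to 61.9 CPM in Ddx41+/- samples (log2 fold change -0.18, SE 0.069, edgeR adjusted p = 0.36). With the length and GC correction the log2 fold change of Pfkp was 0.08 (edgeR adjusted p = 0.80), and without Ddx41+/- replicate 8 that of Hk3 was 0.11 (edgeR adjusted p = 0.70). The neutrophil markers moved with genotype in these libraries, and their part in the Hk3 values was not tested.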

How the data were processed

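The authors sorted about 20K LSK cells per mouse, prepared poly(A) libraries and deposited a table of raw counts by gene symbol without normalization. The submitters' processing notes name FastQC 0.11.7, HISAT2 2.0.5, featureCounts 1.5.2 and mm10. Whether fragments or single reads were counted, and how shared reads were treated, is not given in the sources used here. The labels name a stranded kit and the methods an unstranded one, so genes that overlap on opposite strands are uncertain (22 of the 94 genes share exon bases with another gene in the table). Per the name of the deposited counts, a Ddx41+/- library numbered 5 had been removed. It was not analysed here. Values of 1 gene are not reported here, and the counts and medians over the genes tested include it.

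In R 4.3.3, edgeR 4.0.16 compared the genotypes by its quasi-likelihood F test (TMM scaling, filterByExpr, robust fit) over 13340 genes. Adjusted p-values are Benjamini-Hochberg values over all genes tested, with a threshold of 0.05. The size of each log2 fold change divided by the root of F gave its standard error. CPM used TMM-scaled library sizes. Log2 CPM used a prior count of 2. CPM per kb used the union of exons in GENCODE M21 (GRCm38), which matched all 94 genes. Mean ± SD are over mice. Counting error at these depths is small except for genes with few counts. No sample pair agreed within sampling noise (chi-square per gene of at least 13.7 in 21 pairs). The script was tested on simulated data.

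Genes were named by a rule: in each complex or part, the 3 with the smallest p and the highest per kb, all isoform sets, and the 2 genes with the smallest p in each pathway list. Ndufs1, Sdhb and Atp5j were named outside this rule, after their values were seen, as were Atp5l, Ndufb2, Ndufc2, Ndufa1 and Pfkm. Members and lists were chosen with earlier results of these data known. Alternatives were 3 other scalings, no filter, DESeq2 1.42.0, limma-voom (limma 3.58.1) with and without sample weights, offsets for length and GC content, and leaving out each sample.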

Additional observations from a re-analysis of the deposited data

Results flagged for a closer look

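Gaps within the 4 Ddx41+/+ samples were compared with Dixon's 95% critical value for 62 values, of which about 3.1 would pass by chance and 6 did. Ddx41+/+ replicate 3 stood apart for Ndufaf1, with 31.6 CPM against 24.35 to 24.98 CPM (gap over range 0.914), and for Atp5a1, with 1373 CPM against 1301 to 1308 CPM (0.905). Replicate 1 stood apart for Ndufs8, with 91.9 CPM against 103.0 to 104.9 CPM (0.852), and for the share of counts in the complex I matrix arm, with 0.134% against 0.142% to 0.144% (0.861). Outside the respiratory complexes, replicate 2 stood apart for Tmem70, with 44.9 CPM against 42.4 to 42.6 CPM (0.908), and replicate 4 for Hk3, with 466.9 CPM against 425.1 to 431.8 CPM (0.8403). Of the 6 values, 4 fell in the 2 mice with the lowest and the highest pathway median among Ddx41+/+ samples. These 4 come from genes that also enter that median, so they are not separate evidence about these mice. Groups of 3 were not tested.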

How the results depend on the processing

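No paired analysis was possible because the replicate numbers of the genotypes (1 to 4 and 6 to 8) do not overlap. The number of pathway genes past the adjusted threshold was 0 in all 16 fits, and the smallest adjusted p of any of them was 0.17, for Cox5a without Ddx41+/- replicate 6 (log2 fold change -0.35). The median log2 fold change of the 89 genes was -0.036, moved to 0.0012 with length and GC offsets, which left 46 genes above and 43 below 0, and, with 1 mouse left out, ran from -0.085 (no replicate 6) to 0.0028 (no replicate 8). The number of genes below 0 thus changed with these offsets and with single mice. Genes lower at an unadjusted p under 0.05 numbered 1, and 2 with library totals only, 2 without the filter, 3 with limma-voom and sample weights, 2 with length and GC offsets (Ndufa4 and Atp5l) and 0 (no Ddx41+/+ replicate 2, 3 or 4, or no Ddx41+/- replicate 8) to 6 (no replicate 1, or no replicate 6) when a sample was left out, with 4 without replicate 7. Genes higher numbered 0, and 2 with length and GC offsets (Ndufa12 and Ndufb10) and 0 to 2 when a sample was left out (2 without replicate 3 or 8). Cycs had an unadjusted p of 0.011 without Ddx41+/+ replicate 3. Of 33 named genes, 3 of 495 values changed sign: the log2 fold change of Atp5g2 was 0.0116 with the offsets and ran from -0.16 (no replicate 7) to 0.0164 (no replicate 8), and that of Cyc1 was 0.0012 with the offsets, none past a threshold. Genes called overall numbered 29, and 15 with library totals only, 91 without the filter, 156 with DESeq2, 10 with limma-voom, 70 with the offsets and 7 to 41 when a sample was left out (7, 16, 14 and 9 without replicates 2, 3, 7 and 8). The share of higher genes at an unadjusted p under 0.05 over all genes was 53.7% and 43.8% with library totals only. The intervals given are those of single genes and are not adjusted for the number of genes tested. With 4 and 3 mice, passing the adjusted threshold took a larger difference than an interval that leaves out 0.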
